A study of Mus musculus with 4 samples.

Results

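Mature migratory dendritic cells were taken out of the CD45+ infiltrate of mouse gliomas by the unique molecular identifiers (UMIs) of a few genes per barcode. Of the barcodes with at least 500 detected genes and under 10% of UMIs from mt- genes, a member had at least 1 UMI of Ccr7 and at least 3 of Ccr7 and Fscn1 together. It also had under 30 UMIs of C1qa, C1qb and C1qc together, which are macrophage genes, and none of Cd3e, Cd79a or Ncr1, which mark T, B and NK cells. The rule took 200 of 12866 barcodes, 89 from the WT and 111 from the CaMKK2 KO library, with 13960 barcodes deposited in all. CT2a, a glioma line of the C57BL/6 background, had been implanted in the brains of 4 wildtype (WT) mice and 4 CaMKK2 KO mice (CaMKK2-/-, C57Bl/6 background), for which the labels name no drug. In the latter, Camkk2 is deleted in the whole host, while the implanted tumor cells are the same in both groups. Leukocytes were sorted from the tumor-bearing hemispheres on day 14, those of each mouse carried a hashtag antibody of their own, and the 4 mice of a genotype were run together on 1 10X channel, so a difference by genotype cannot be told apart from one by channel. The labels do not give the age of these mice. The paper states an age range in weeks for its experiments, which used female mice matched for age. The mouse is the replicate. Hashtag counts assigned 193 members to a single mouse, and 7 members whose barcodes carried 2 hashtags were left out of all values per mouse. WT mice 1 to 4 gave 4, 33, 26 and 21 members, and CaMKK2 KO mice 1 to 4 gave 13, 32, 25 and 39. No member shared its barcode sequence with a cell of the other library, although 42 barcodes occurred in both.

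Conventional dendritic cells take up antigen in tissue and exist as 2 lineages, cDC1, which present well to CD8 T cells, and cDC2, which present mainly to CD4 T cells. On maturation either lineage turns off uptake and shows a shared program, in which the chemokine receptor CCR7 guides the cell along CCL19 and CCL21 to lymphatic vessels and lymph nodes, and the actin-bundling protein fascin, encoded by Fscn1, supports its dendrites and its movement. NF-kB transcription factors, held back by IkB proteins until a cell is stimulated, take part in this program, which joins costimulatory ligands for T cells with molecules that restrain them. CaMKK2 is a kinase activated by calcium signals that acts on CaMKI, CaMKIV and AMPK.

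Promoters of 4 genes that stood high in these cells are shown here because genes of the NF-kB pathway stood higher in the members than in other dendritic cells. They were picked from windows that hold a match to the kB consensus motif, and for Nfkb2, which has 3 windows, the one with the most matches is shown. Each runs from 250 bases before to 50 bases after a gene start annotated by RefSeq (build GRCm38.p6) and is written 5' to 3' on the strand of the gene, with matches to the kB consensus motif on either strand in capitals. Ramp3 encodes a coreceptor for calcitonin-family peptides (chr11:6658283-6658582, plus strand), Mmp25 a membrane-anchored metalloproteinase (chr17:23645220-23645519, minus strand), Nfkb2 the NF-kB subunit p100/p52 (chr19:46304487-46304786, plus strand) and Nfkbia the inhibitor IkB-alpha (chr12:55492598-55492897, minus strand).
Ramp3: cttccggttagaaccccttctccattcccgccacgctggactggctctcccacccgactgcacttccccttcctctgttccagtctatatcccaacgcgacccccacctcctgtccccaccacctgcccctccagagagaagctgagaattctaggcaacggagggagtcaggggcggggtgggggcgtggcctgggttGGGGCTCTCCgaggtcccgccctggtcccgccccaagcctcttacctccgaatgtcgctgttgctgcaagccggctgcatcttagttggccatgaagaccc
Mmp25: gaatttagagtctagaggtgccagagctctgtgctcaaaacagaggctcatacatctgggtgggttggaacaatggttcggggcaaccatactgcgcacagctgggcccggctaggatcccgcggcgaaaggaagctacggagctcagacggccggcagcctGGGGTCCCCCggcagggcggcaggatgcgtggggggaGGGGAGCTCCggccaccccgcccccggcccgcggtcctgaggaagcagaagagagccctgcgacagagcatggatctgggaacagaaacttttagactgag
Nfkb2: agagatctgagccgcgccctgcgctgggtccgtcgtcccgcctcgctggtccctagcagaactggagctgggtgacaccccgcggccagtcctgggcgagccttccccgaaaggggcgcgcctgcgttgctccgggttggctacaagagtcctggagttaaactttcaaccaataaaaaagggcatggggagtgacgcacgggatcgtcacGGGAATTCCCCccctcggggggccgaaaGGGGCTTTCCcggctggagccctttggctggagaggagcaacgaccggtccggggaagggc
Nfkbia: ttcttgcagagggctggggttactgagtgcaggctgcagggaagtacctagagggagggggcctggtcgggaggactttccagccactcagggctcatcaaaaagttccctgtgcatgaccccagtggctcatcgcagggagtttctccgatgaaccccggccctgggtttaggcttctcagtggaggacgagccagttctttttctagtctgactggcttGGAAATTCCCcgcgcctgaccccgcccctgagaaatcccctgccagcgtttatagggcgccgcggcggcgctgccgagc
The Ramp3 and Nfkbia windows held 1 match each, Mmp25 held 2, and Nfkb2 held 3, of which 2 overlap. The motif was found in 8.46% of 32851 promoter windows, and in at least 1 window of 9.55% of 27025 genes. It was found in 19.9% of 251 genes that were at least 2-fold higher in members than in other dendritic cells in every counted mouse, and in 12.9% of 171 genes that were as far lower, and it was found in 2 of the 15 genes with a window among the 20 highest. Of the NF-kB list, 13 genes had a window and 6 of them a match, while Rela, Nfkbib, Traf1, Birc2, Birc3, Map3k14 and Icam1 had none. Of the gate's own label genes, Fscn1, Ccl22, Cacnb3, Il4i1 and Il12b held no match in their windows, while Ccr7 had no entry in the promoter table. A match is a run of letters and does not show that a factor binds.

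The label was checked against marker genes. Ccr7 (ENSMUSG00000037944, chr11:99144196-99155077) and Fscn1 (ENSMUSG00000029581, chr5:142960343-142973185) set the gate, so their levels describe the rule. The other label genes were not used. Ccl22, a chemokine for CCR4-bearing T cells, was detected in 84.5% of the 193 assigned members and in 7.58% of the other dendritic cells, Cacnb3, a calcium channel subunit, in 87.0% and 3.93%, and Il4i1, a secreted amino acid oxidase, in 79.3% and 7.58%. Among members, the share with a UMI of Il12b, the p40 subunit of IL-12 and IL-23, was 40.5% in WT and 37.6% in CaMKK2 KO libraries, against 0.151% and 0.319% of T cells. With every cell thinned to 5000 UMIs, which left out 10 WT and 9 CaMKK2 KO members, the shares were 33.8% and 32.0%. The dendritic cell genes Flt3, a growth factor receptor, and Zbtb46, a transcription factor of the lineage, stood at 238 ± 52.9 and 98.4 ± 24.9 CPM (UMIs of a gene scaled so that each sum over the cells of a mouse has equal depth, mean ± SD over the 8 mice), against 178 ± 17.2 and 42 ± 17.2 in other dendritic cells, where the gate for cDC2 requires a UMI of Flt3, so that level is partly set by the gate. Ccr7 and Fscn1 together ranged from 3 to 224 UMIs per member, with a median of 58, and 175 members had 10 or more. The 3 members with exactly 3 UMIs had Cacnb3 at 118 CPM and no UMI of Ccl22, while the 8 barcodes just outside with 2 UMIs had Ccl22 at 385 CPM and no UMI of Cacnb3.

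RNA of other cells was low in the members but not absent. Cd3e, Cd79a and Ncr1 were at 0 by the rule. All 9 macrophage markers had UMIs, led by Apoe at 331 CPM in WT and 20.3 in CaMKK2 KO mice, and their sum was 532 ± 50.9 CPM in WT against 172 ± 67.4 in CaMKK2 KO mice. The T cell list had UMIs of 7 of its 8 genes, with Cd8b1 highest at 30.4 CPM in WT and 5.65 in CaMKK2 KO mice, and a sum of 66.2 ± 93.5 and 65.8 ± 39.2. Of the NK genes, 4 of 5 had UMIs, with Gzma highest, and their sum was 725 CPM in CaMKK2 KO mouse 2 against at most 59.5 in any other mouse. The neutrophil genes summed to at most 4.87 CPM in any mouse, with S100a8 and Retnlg at 0. Monocyte genes summed to 594 ± 321 and 450 ± 159 CPM, with Plac8 highest and Vcan at 0, microglia genes to 65.1 ± 20.6 and 84.1 ± 41.7, and pDC genes to 726 ± 613 and 764 ± 177, with Bst2 highest. B cell genes summed to 68.4 ± 72.1 and 22.2 ± 8.45 CPM, with Igkc highest, and genes of tumor, glia or vessels to 123 ± 25.6 and 76.9 ± 44.5, with the myelin gene Mbp highest and Gfap, Olig1, Cldn5, Col1a1 and Pdgfra at 0. Basophil genes reached 82.9 CPM in CaMKK2 KO mouse 4 and at most 4.71 elsewhere. At least 3 UMIs of pDC, NK, T, B or basophil genes were found in 2 of 84 WT and 11 of 109 CaMKK2 KO members. These are the cells meant below by members that held UMIs of other cell types. The shares of members, the calls, the list medians and the share of ribosomal protein genes were computed again without them. Macrophage and monocyte genes were not part of that rule, and Apoe was still at 327.5 ± 20.3 CPM in the WT members left.

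Depth differed between the classes more than between the genotypes. A member held a median of 10078 UMIs in WT and 10807 in CaMKK2 KO mice, against 22425 and 20398 in cDC1-gated and 16173 and 14824 in cDC2-gated cells. Summed per mouse, members gave 31573 UMIs in WT mouse 1 and 130373 to 410350 in the other mice, so that 3 UMIs, the floor for a gene without UMIs, correspond to 95.0 CPM in WT mouse 1 and 7.31 to 23 CPM elsewhere.

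The share of mature migratory dendritic cells varied widely among the mice of each genotype. Members made up 0.360%, 2.27%, 1.77% and 1.36% of all cells of WT mice 1 to 4, and 0.923%, 1.78%, 1.48% and 3.15% of those of CaMKK2 KO mice 1 to 4. WT mouse 1 was lowest and CaMKK2 KO mouse 4 highest, and the groups overlapped (1.44% ± 0.812 against 1.83% ± 0.946, n = 4 each, two-sided exact permutation p = 0.514). Of the dendritic cells of a mouse (members with cDC1- and cDC2-gated cells), members made up 9.76%, 36.3%, 36.6% and 21.4% in WT mice and 31%, 43.2%, 31.6% and 73.6% in CaMKK2 KO mice. Here too the ranges overlapped (26.0% ± 12.9 against 44.9% ± 20.0, n = 4 each, two-sided exact permutation p = 0.171), where 4 mice against 4 cannot give a p below 0.0286. Without CaMKK2 KO mouse 4 the difference in the share of dendritic cells was 9.26 in place of 18.8 percentage points, and that in the share of all cells was -0.0466 in place of 0.392. The gates for other dendritic cells also held cells with 3 or more UMIs of plasmacytoid dendritic cell (pDC) genes, 26 of 217 in WT and 42 of 139 in CaMKK2 KO mice, and without them the shares of dendritic cells were 28.5% ± 14.6 and 52.6% ± 18.5 (n = 4 each, exact permutation p = 0.0857). Deeper cells pass a gate more easily, and with all cells thinned to 5000 UMIs the members' share of dendritic cells was 44.7% ± 13.4 in WT and 63.4% ± 16.5 in CaMKK2 KO mice.

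**Figure D1:**
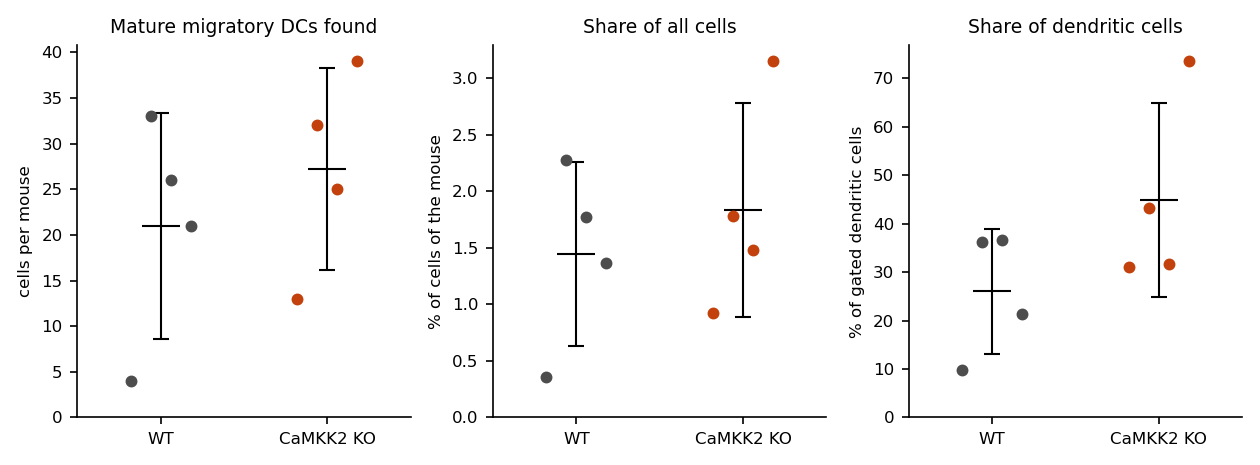
Mature migratory dendritic cells per mouse as a number of cells (left), as a percentage of all cells of the mouse (middle) and as a percentage of its gated dendritic cells (right), with 1 point per mouse, the mean as a horizontal line and the SD as bars. WT and CaMKK2 KO mice overlap in all 3 panels, with CaMKK2 KO mouse 4 highest, at 73.6% of its dendritic cells.

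The program of the members was described against 356 other dendritic cells of the same mice, which are the cDC1-gated and cDC2-gated cells assigned to a mouse. For each gene the ratio of CPM plus 10 was taken within a mouse and averaged on the log2 scale over the 7 mice with at least 5 members, which leaves out WT mouse 1 with 4. Of 5373 genes detected in at least 30% of either class, 308 (5.73%) were at least 2-fold higher in the members in all 7 mice and 222 (4.13%) at least 2-fold lower. Of the other dendritic cells, 26 of 217 in WT and 42 of 139 in CaMKK2 KO mice held 3 or more UMIs of pDC genes. Without those cells 296 genes were higher and 202 lower, of which 280 and 187 were shared with the counts above. The members were picked by their UMIs, so these ratios are a description and were not tested. Ratios with 10 CPM added understate the difference of genes that are near 0 in one class.

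Genes of maturation and migration stood far above the other dendritic cells. Ccr7 had 2154 CPM in the lowest, 3092 in the median and 3633 in the highest of the 8 mice, against 0, 1.07 and 3.29 in other dendritic cells, and Fscn1 had 1710, 2590 and 3937 against 0, 1.02 and 12.7, both as the rule requires. Ccl22 had 507, 1311 and 3237 CPM against 3.29, 6.39 and 30.4, a ratio of 72.2. Even the lowest mouse of the members lay above the highest mouse of the other class for each of these 3 genes. Of the 25 genes of the maturation list, 22 were among the genes considered. All 22 were at least 2-fold higher in every counted mouse, against 5.73% of genes considered, with a median log2 ratio of 4.40 against -0.17. Beside the label genes they included Cd63, a tetraspanin of endosomes (44.7-fold), Socs2, a suppressor of cytokine signaling (41.7-fold), Serpinb6b (40.0-fold) and Serpinb9 (28.3-fold), which are serpins, the latter an inhibitor of granzyme B, Samsn1, an adaptor protein (25.4-fold), Tmem123 (21.3-fold) and Tbc1d4, a regulator of glucose transporter traffic (20.8-fold). The list was written from knowledge of this cell state and with earlier results of these data known, and the gate selects for it. Its count is therefore a description.

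Among the 20 genes with the highest ratios, several lay outside that list. Ramp3 had 813, 1049 and 1366 CPM in the lowest, median and highest mouse, against 0, 7.26 and 23 in other dendritic cells, a ratio of 65.4. Ccl5, a chemokine for T cells and NK cells, had 4487, 6064 and 10006 CPM against 21.4, 133 and 309 (55.0-fold). Fabp5, a fatty acid carrier, had 665, 1352 and 2917 CPM against 1.52, 22.9 and 65.7 (44.4-fold). For these 3 genes, too, the 8 mice of one class did not overlap with those of the other. The remaining genes were Zmynd15, a zinc finger gene (33.8-fold), Cd200, which restrains myeloid cells through its receptor (30.6-fold), Mmp25 (24.7-fold), Stat4, a signal transducer downstream of IL-12 (22.3-fold), and Scin, an actin-severing protein (20.2-fold).

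NF-kB genes were higher in the members as a group. All 15 had a mean ratio above 1, with a median log2 ratio of 1.70, and 9 of them passed the 2-fold rule in every counted mouse. Of all 5373 genes considered, 2185 had a mean ratio above 1 and 5.73% were higher by the rule. Relb, a subunit of the alternative pathway, had 522, 639 and 980 CPM in the lowest, median and highest mouse against 33.3, 44.2 and 92.0 in other dendritic cells (12.3-fold), and Birc2, a ubiquitin ligase of the pathway, was 12.2-fold higher. Nfkb2, the partner of RelB whose promoter is shown above, had 95.0, 350 and 421 CPM against 36.1, 57.1 and 89.1 (5.11-fold). The low value of Nfkb2 came from WT mouse 1, in which the gene had 3 UMIs. Rel, a subunit of the canonical pathway, was 5.59-fold higher, Map3k14, the kinase NIK, 5.59-fold, and Traf1, an adaptor of TNF receptors, 7.74-fold. The inhibitors Nfkbia (3.09-fold) and Nfkbib (4.12-fold) stood higher as well, while Rela (1.94-fold), Nfkb1 (2.06-fold) and Bcl3 (1.06-fold) did not reach 2-fold in all 7 mice.

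Signals for T cells were higher in part. In the costimulation list 5 of the 9 genes considered were at least 2-fold higher in every counted mouse and 1 was lower, with a median log2 ratio of 2.18. By the same rule 5.73% of all genes considered were higher and 4.13% lower. Cd80, a ligand of CD28, had 118, 163 and 228 CPM against 6.83, 12.3 and 24.4 (8.03-fold), Cd40, through which T cells act on dendritic cells, was 4.53-fold higher, and Cd83, a maturation marker, 5.13-fold. Tnfrsf4 and Tnfrsf9, which encode the receptors OX40 and 4-1BB, were 15.6-fold and 11-fold higher. Cd86, the other ligand of CD28, was 1.60-fold higher on average and in 6 of 7 mice, and Cd48, an adhesion ligand, was 2.99-fold lower. Of the restraint list 4 of 12 genes were higher and 1 lower, against the same 5.73% and 4.13% of all genes, with a median log2 ratio of 0.11. Cd274, which encodes PD-L1, had 475, 573 and 868 CPM in the lowest, median and highest mouse against 34.2, 55.7 and 95.3 (10.1-fold), and the other 3 were Cd200, Pdcd1lg2, which encodes PD-L2 (6.11-fold), and Fas, a death receptor (6.56-fold). Lgals9, which encodes galectin-9, was 5.00-fold lower.

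Few cytokine and chemokine genes were high enough to be considered. Of 5 cytokine genes 2 were higher by the rule, with a median log2 ratio of 1.16, and of 8 chemokine genes 2 were, with a median of -0.03, and none of either list was lower, where 5.73% of all genes were higher and 4.13% lower. Il15ra, which presents IL-15 to T and NK cells, had 151, 278 and 414 CPM against 5.36, 12.3 and 21.3 (14.7-fold), and Il15 itself was 4.63-fold higher. Cxcl16, the ligand of CXCR6, had 943, 1194 and 1409 CPM against 105, 191 and 367 (6.69-fold). These genes did not overlap between the classes in any mouse. Il1b, an inflammatory cytokine, was at 0.980 times the level of other dendritic cells, and Ccl17, which shares the receptor of Ccl22, was 2.92-fold higher on average and higher in all 7 mice, without reaching 2-fold in each. Of chemokine receptors other than Ccr7, Cxcr5, the receptor that guides cells to follicles, was 5.14-fold higher at 41.1 ± 27.2 CPM, and Ccr2, the receptor of monocyte chemokines, was 10.8-fold lower.

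A minority of the genes for antigen uptake and of the MHC class II list were lower by the rule. Of the 12 genes of antigen capture and sensing considered, none was higher by the rule, where 5.73% of all genes were. The median log2 ratio was -2.01, and 4 were lower in every counted mouse, where 4.13% of all genes were. Those 4 were the lectin receptors Cd209a (18.4-fold lower), Clec10a (15.0-fold lower) and Clec9a (7.32-fold lower) and Tlr3, a sensor of double-stranded RNA (9.79-fold lower). Cd209a, Clec10a and Clec9a also define the gates for cDC2 and cDC1, so their difference is in part set by how the other class was chosen. Tlr3 is not a gate gene but stands on the cDC1 marker list, and the part of that choice in its ratio was not tested. All 12 genes of the MHC class II list that were considered had a mean ratio below 1, with a median log2 ratio of -1.40, and 3 passed the 2-fold rule. Of all 5373 genes considered, 3188 had a mean ratio below 1 and 4.13% were lower by the rule. H2-DMb1, a subunit of the peptide-loading factor H2-DM, had 31.7, 100 and 151 CPM against 569, 823 and 985 (7.34-fold lower), its partner H2-DMa was 4.07-fold lower, and Marchf1, the ubiquitin ligase that removes class II molecules from the surface, was 6.89-fold lower. H2-Aa, a class II alpha chain, had 2702, 5230 and 7769 CPM against 7319, 9327 and 13688, which is 1.79-fold lower. MHC class I genes went the other way for the presenting chains. B2m, the shared light chain, had 5004, 6493 and 9209 CPM against 2124, 2760 and 3351 (2.36-fold), H2-K1 was 2.40-fold higher and H2-Q7, whose reads can be shared with near copies, 3.64-fold, while the chaperones Calr and Pdia3 were 3.22-fold and 2.59-fold lower. The median log2 ratio of this list was 0.58, with 2 of 17 genes higher and 2 lower by the rule, where 5.73% and 4.13% of all genes considered were.

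The 15 genes with the lowest ratios were led by Naaa, a lysosomal hydrolase, with 0, 5.86 and 30.7 CPM in the lowest, median and highest mouse against 390, 659 and 1147 (41.0-fold lower). Ckb, a creatine kinase, had 0, 10.1 and 28.0 CPM against 348, 519 and 600 (23.9-fold lower). Neither gene overlapped between the classes. The others were Cd209a, Ppt1, a lysosomal thioesterase (15.3-fold lower), Clec10a, Ly6c2, a monocyte surface protein (14.0-fold lower), Alox5ap, which serves leukotriene synthesis (13-fold lower), Egr1, Wdfy4, which cDC1 need for cross-presentation (11.6-fold lower), Cd7 (11.1-fold lower), Ccr2, Itgae, the integrin CD103 (10.7-fold lower), Anxa1 (10.5-fold lower), Plet1 (9.95-fold lower) and Rab7b (9.89-fold lower). Naaa, Wdfy4 and Itgae are cDC1 genes and Cd209a, Clec10a and Cd7 cDC2 genes in the marker lists. Naaa had a mean of 1408 CPM in cDC1-gated and 122 in cDC2-gated cells, and Cd209a 12.2 and 357.

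Other groups differed less. The immediate early genes Fos (5.07-fold lower) and Egr1 (12.5-fold lower), which encode transcription factors, passed the 2-fold rule, and the median log2 ratio of the 15 immediate early and heat shock genes was -0.70. In WT mouse 1, which was not counted, their log2 ratios were -0.17 and -0.67. Of 17 type I interferon genes none passed in either direction, with a median of -0.71, and of 13 interferon gamma genes 1 was higher, Irf1, a transcription factor (2.90-fold), with a median of 0.13. Over all genes considered, 5.73% passed as higher and 4.13% as lower. The dendritic cell factors Etv3 (7.03-fold) and Ikzf4 (14.1-fold), both transcription factors, were higher beside Stat4, while Irf8 (1.28-fold) and Id2 (1.04-fold) differed little. In the cytoskeleton list Tuba1a, an alpha tubulin (5.66-fold), Myo1g, an unconventional myosin (6.11-fold), and Gpr132, a G protein-coupled receptor (4.86-fold), were higher in every counted mouse. Camk1d, a kinase of the CaMKI family, was 7.48-fold lower. Camkk2 itself stood at 26.6 ± 17.8 CPM in the members and 16.9 ± 8.59 in other dendritic cells.

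**Figure D2:**
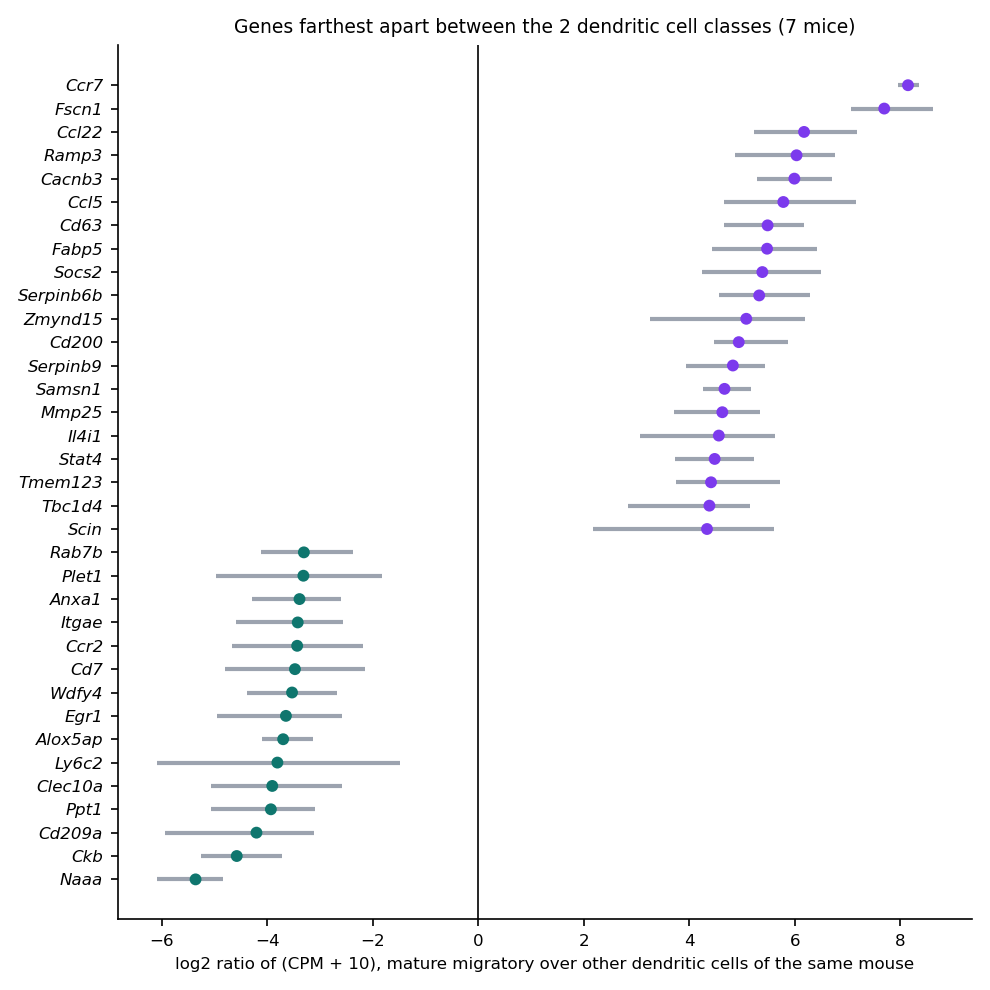
The 20 genes highest and 15 lowest in mature migratory relative to other dendritic cells, as the log2 ratio of CPM plus 10 within a mouse. Points are means over 7 mice and lines run from the lowest to the highest mouse; no line reaches 0, which the rule for choosing the genes requires, and Ccr7 and Naaa mark the 2 ends.

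The comparison of the genotypes asks what loss of CaMKK2 in the host changes in these cells, and the gate did not use genotype. Camkk2 (ENSMUSG00000029471, chr5:122731170-122779409), the deleted gene, had 63.4, 16.3, 11 and 42.4 CPM in members of WT mice 1 to 4 and 15.3, 27.6, 17.5 and 19.5 in those of CaMKK2 KO mice 1 to 4. With 20 and 24 UMIs in all it could not check the genotype in this class, and the groups overlapped. In macrophages of the same libraries it was 28.6 ± 1.48 CPM in WT and 13.5 ± 3.20 in CaMKK2 KO mice (adjusted p = 0.00367, edgeR). It did not pass in T cells, at 9.26 and 6.48 CPM (adjusted p = 0.384), or in NK cells, at 16.2 and 13 (adjusted p = 0.422). UMIs were summed over the members of each mouse, and 2803 genes with at least 100 UMIs were tested by the quasi-likelihood method of edgeR with Benjamini-Hochberg adjustment. At an adjusted p below 0.05, 4 genes differed (0.143% of those tested), 1 higher (0.0357%) and 3 lower (0.107%) in CaMKK2 KO mice, of which 3 are described here, and the median log2 fold change of all genes tested was 0.07. Without adjustment 395 genes had a p below 0.05, of which 233 (8.31%) were higher and 162 (5.78%) lower. The count rests on 84 and 109 cells and was 16 without WT mouse 1, 9 without WT mouse 3, 2 without CaMKK2 KO mouse 1 and 10 without CaMKK2 KO mouse 3. It was 196 with no filter on low counts and 77 by DESeq2.

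Got1 (ENSMUSG00000025190, chr19:43499752-43524605), the cytosolic aspartate aminotransferase, fell in members of CaMKK2 KO mice. It had 824, 399, 486 and 561 CPM in WT mice 1 to 4 and 138, 175, 203 and 102 in CaMKK2 KO mice 1 to 4. All CaMKK2 KO mice lay below the lowest WT mouse (568 ± 183 against 155 ± 43.9 CPM, log2 fold change -1.78 ± 0.27 (SE), adjusted p = 0.0112, edgeR). In other dendritic cells, where its level was 55.5 ± 15.6 and 42.5 ± 17.0 CPM, the log2 fold change was -0.33 (adjusted p = 0.624), and in macrophages it was -1.02 (adjusted p = 0.000964). In T cells, NK cells and B cells it was -0.09, 0.30 and 0.98, without passing (adjusted p = 0.756, 0.496 and 0.283, edgeR). The difference between the classes of dendritic cells did not pass its own test (interaction -1.38 ± 0.38, adjusted p = 0.303, edgeR). The log2 fold change in members was -1.74 when CaMKK2 KO mouse 1 was left out (adjusted p = 0.056, edgeR), and -1.85 without members that held UMIs of other cell types (adjusted p = 0.0615, edgeR).

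Gm8797 (ENSMUSG00000103034, chr3:5750806-5751295), a gene model related to polyubiquitin, rose from 0, 8.15, 7.31 and 9.43 CPM to 146, 197, 123 and 224 (log2 fold change 4.39 ± 0.38, adjusted p = 3.09e-05, edgeR), with no overlap. It shares 394 of its 460 31-base stretches with Ubb, a polyubiquitin gene named here after its values were seen, so reads of the pair may be split between them and its level is uncertain. Ubb had 1800 ± 209 and 1865 ± 206 CPM, and Gm8797 rose by 4.36 to 4.70 on the log2 scale in the macrophages, T cells, NK cells, B cells and other dendritic cells as well.

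Apoe (ENSMUSG00000002985, chr7:19696109-19699188), an apolipoprotein of macrophages and microglia, had the lowest p. It had 317, 364, 314 and 330 CPM in members of WT mice and 15.3, 21.5, 17.5 and 26.8 in those of CaMKK2 KO mice, with no overlap (log2 fold change -3.93 ± 0.24, adjusted p = 6.3e-07, edgeR). T cells, which do not express it, held 332 ± 24.9 and 31.5 ± 8.32 CPM in the same libraries, and macrophages 28450 ± 4370 and 2260 ± 1231. The level in the members was thus that of the T cells in WT and below it in CaMKK2 KO mice, so no expression by the members is read from it. The part of free RNA in this difference was not tested. An Apoe UMI was found in 95.2% of WT and 20.2% of CaMKK2 KO members, against 93.8% and 20.2% of T cells, at median depths of 10078 and 10807 UMIs for members and 9303 and 9434 for T cells.

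Of the genes that label the cells, Cacnb3, Ccl22, Il4i1 and Il12b were not used by the gate, and none of these 4 passed the test. Ccr7 had 2154, 2942, 3243 and 3479 CPM in WT and 2539, 3633, 2777 and 3292 in CaMKK2 KO mice, with the groups overlapping. Fscn1 had 1710, 2064, 2665 and 1829 CPM in WT and 2516, 3937, 3022 and 3926 in CaMKK2 KO mice, where only CaMKK2 KO mouse 1 fell within the WT range. The gate used Ccr7 and Fscn1, so their levels are a description without a test. Cacnb3 (ENSMUSG00000003352, chr15:98630840-98644529) had 602, 538, 713 and 453 CPM against 1035, 1078, 742 and 831, and no CaMKK2 KO mouse was as low as the highest WT mouse (log2 fold change 0.68 ± 0.20, adjusted p = 0.146, edgeR). Over all genes tested, 148 (5.28%) had their 4 CaMKK2 KO mice above the highest WT mouse and 91 (3.25%) had them below the lowest. Ccl22 was 1264 ± 586 and 1745 ± 999 CPM, Il4i1 417 ± 250 and 629 ± 91.4, and Il12b 256 ± 119 and 183 ± 114, with overlapping groups. Of the 22 maturation genes tested that the gate did not use, 15 had a log2 fold change above 0, with a median of 0.145, and none passed. Over all 2803 genes tested, 1643 were above 0, with a median of 0.07.

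Interferon gamma genes had the highest median log2 fold change of the lists, and none of them passed the test. Of 11 tested, 10 had a log2 fold change above 0, the median was 1.07 against 0.07 for all genes, and 8 had an unadjusted p below 0.05 on the higher side, where 8.31% of all genes did. Cxcl9, a chemokine for CXCR3-bearing T cells, had 0, 163, 300 and 490 CPM in WT mice and 2815, 1465, 634 and 3141 in CaMKK2 KO mice. No mouse overlapped, yet the spread was wide (log2 fold change 2.86 ± 0.54, adjusted p = 0.0575, edgeR). A Cxcl9 UMI was found in 25.0% of WT and 50.5% of CaMKK2 KO members, and in 21.6% and 41.0% after thinning to 5000 UMIs, against 4.37% and 16.3% of T cells before it. In macrophages Cxcl9 had 351 ± 304 and 1575 ± 776 CPM, and the part of free RNA in the members' UMIs was not tested. Gbp2, a guanylate-binding GTPase, had 63.4, 185, 194 and 226 CPM in WT and 621, 605, 291 and 580 in CaMKK2 KO mice (log2 fold change 1.48 ± 0.28, adjusted p = 0.0591, edgeR). Its groups did not overlap. As for Cxcl9 and Gbp2, every CaMKK2 KO mouse lay above every WT mouse in 5.28% of all genes tested. Irf1 had 292 ± 43.7 and 541 ± 197 CPM (adjusted p = 0.134), Gbp5, a relative of Gbp2, 129 ± 57.2 and 313 ± 114 (adjusted p = 0.133), and Iigp1, an immunity-related GTPase, 40.4 ± 39.6 and 206 ± 169 (adjusted p = 0.138). Ciita, the class II transactivator, was the member below 0, at 169 and 111 CPM. In other dendritic cells all 15 genes of this list that were tested had a log2 fold change above 0, with a median of 0.77, and 2 passed on the higher side, where 3735 of all 6410 genes were above 0, with a median of 0.07, and 1.78% passed on that side. Without members that held UMIs of other cell types, a rule that did not cover macrophage genes, the list's median was 0.98. Of its 11 genes, 10 were above 0. Cxcl9 in CaMKK2 KO mouse 3 was then 210 CPM and Gbp2 166, both within the WT range, with adjusted p of 0.0906 and 0.113 (edgeR).

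No gene of antigen presentation passed the test in members. Of 16 MHC class I genes tested, 12 had a log2 fold change above 0 (median 0.24), where 1643 of all 2803 genes did, among them B2m with 5004, 5753, 5838 and 5332 CPM in WT and 7578, 9209, 7147 and 8039 in CaMKK2 KO mice (adjusted p = 0.133, edgeR). H2-D1, a class I heavy chain, had 3601 ± 386 and 5380 ± 457 CPM (adjusted p = 0.132), and the immunoproteasome subunit Psmb8 1273 ± 125 and 1952 ± 217 (adjusted p = 0.133). These 3 genes did not overlap between the genotypes. Of 11 MHC class II genes tested, 8 were below 0 (median -0.33), where 1160 of all 2803 genes were. H2-Aa had 5764, 6937, 5575 and 7769 CPM in WT and 4779, 2702, 4885 and 4689 in CaMKK2 KO mice, all below the lowest WT mouse (log2 fold change -0.62 ± 0.20, adjusted p = 0.185, edgeR). Such a fall without overlap was seen in 3.25% of all genes tested. By the test, 4 of 17 class I genes rose in other dendritic cells, where 1.78% of all genes did, namely H2-T23, Tapbp, Psmb8 and Psmb9. There 4 of 12 class II genes fell, where 1.25% of all genes did, namely the chains H2-Aa (log2 fold change -0.43, adjusted p = 0.0481), H2-Ab1 and H2-Eb1 and the protease Ctss. The pDC markers of these cells summed to 367.5, 1559, 952 and 1364 CPM in WT and 2378, 1867, 3907 and 2093 in CaMKK2 KO mice, so no CaMKK2 KO mouse was as low as the highest WT mouse. Without cells that held pDC genes, 3 class I genes rose (Psmb8, Psmb9 and Psmb10), where 0.740% of all genes did, and of class II Ctss alone fell, where 0.964% of all genes did. H2-Aa then had a log2 fold change of -0.29 and an adjusted p of 0.243, and H2-Ab1 and H2-Eb1 no longer passed. In members without UMIs of other cell types, the class I and class II lists had medians of 0.22 and -0.36, and no gene of either passed.

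The remaining lists gave no call in the members beside Apoe, which stands on the lipid list. NF-kB genes had a median log2 fold change of 0.22 (11 of 15 above 0), costimulation genes 0.17 (6 of 10), restraint genes 0.44 (7 of 9), type I interferon genes 0.09 (11 of 17) and cytoskeleton genes 0.30 (12 of 13). Chemokine genes had a median of 0.925 (8 of 9 above 0) and chemokine receptors -0.56 (0 of 3), where 1643 of all 2803 genes were above 0. Without members that held UMIs of other cell types, 5 chemokine genes were tested, all above 0, with a median of 0.42. Immediate early and heat shock genes had a median of -0.23 (10 of 13 below 0), among them the chaperone Hspa1a with 285, 250, 121 and 504 CPM in WT and 0, 86.0, 38.5 and 75.6 in CaMKK2 KO mice (adjusted p = 0.0814, edgeR). Its groups did not overlap. Il1b had 1336 ± 301 and 724 ± 239 CPM (adjusted p = 0.133) and Cd83 1039 ± 233 and 632 ± 72.0 (adjusted p = 0.124), and for both the highest CaMKK2 KO mouse was below the lowest WT mouse. Fabp5 had 665, 2917, 2515 and 2687 CPM in WT and 1388, 752, 883 and 1316 in CaMKK2 KO mice (adjusted p = 0.154), where WT mouse 1 lay below all CaMKK2 KO mice and the other 3 WT mice above them. Cd274 had 539 ± 42.4 and 684 ± 132 CPM (adjusted p = 0.479, edgeR), without overlap of the mice. Every CaMKK2 KO mouse lay above every WT mouse in 5.28% of all genes tested, as for Cd274. They all lay below in 3.25%, as for Hspa1a, Il1b and Cd83.

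**Figure D3:**
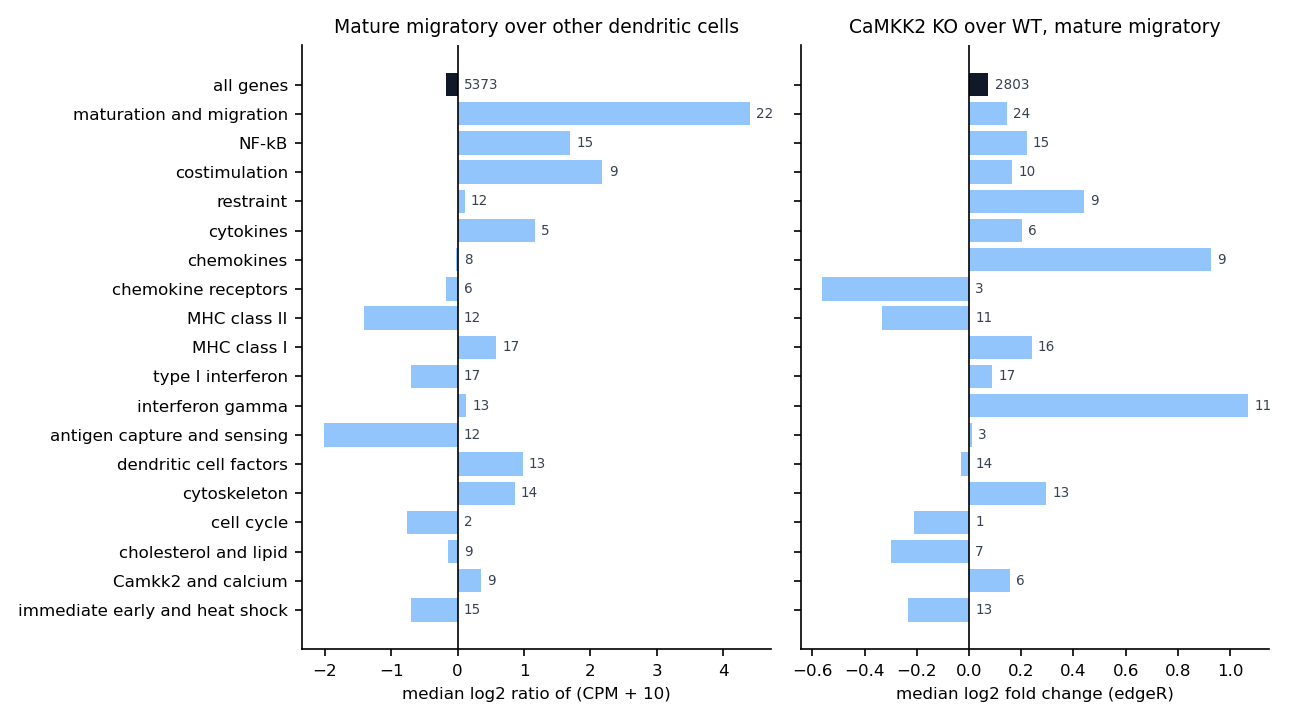
Median difference of each gene list, on the left as the log2 ratio of mature migratory over other dendritic cells and on the right as the log2 fold change of CaMKK2 KO over WT mice within mature migratory dendritic cells, with the number of genes beside each bar and all genes in the dark bar on top. Maturation genes reach 4.40 on the left, where they also define the cells, and interferon gamma genes reach 1.07 on the right, where no gene of that list passed the test.

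**Figure D4:**
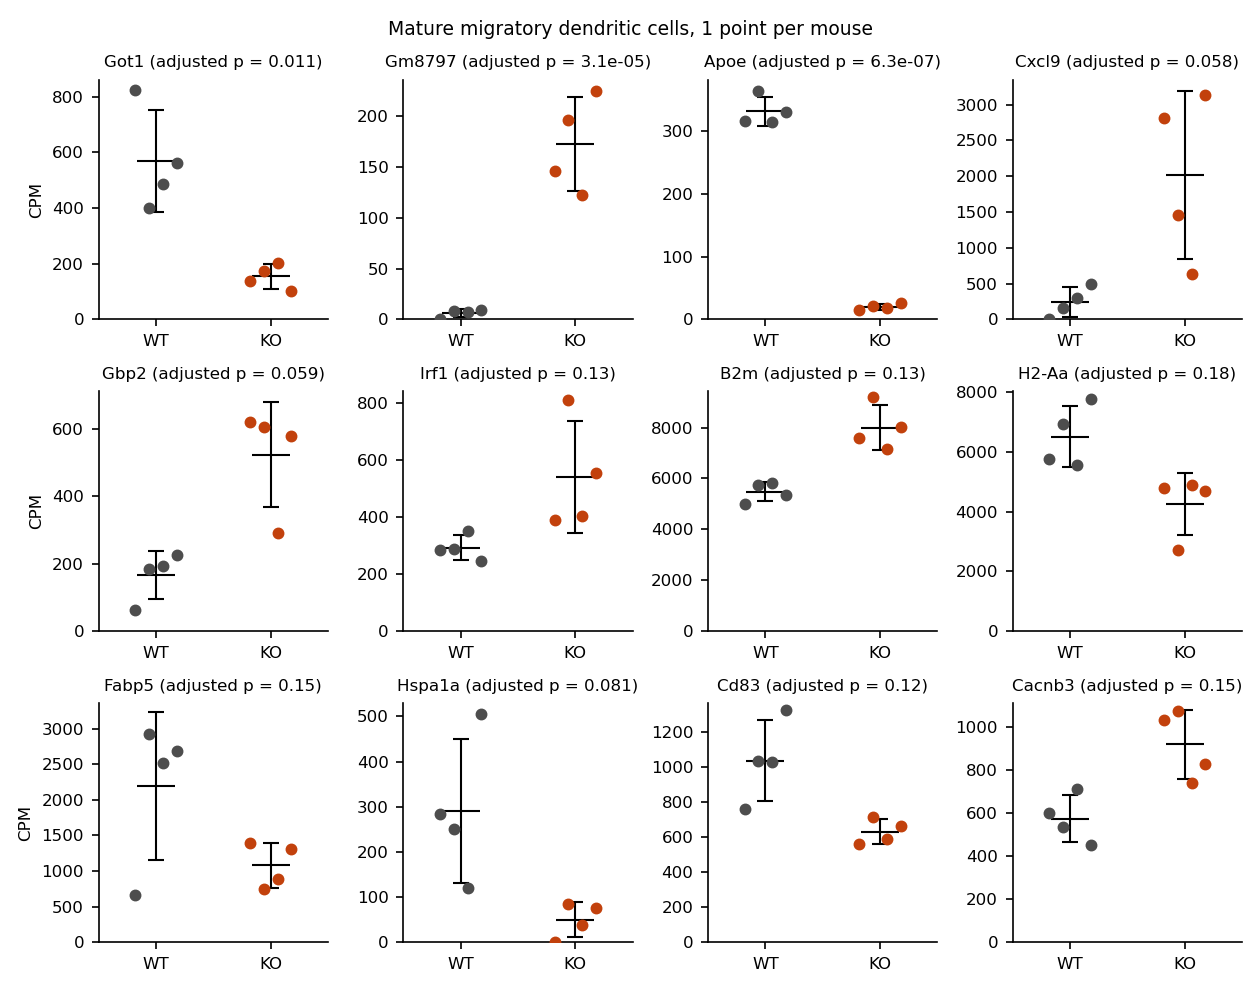
CPM of 12 genes in mature migratory dendritic cells of WT (grey) and CaMKK2 KO (orange) mice, with 1 point per mouse, the mean as a line, the SD as bars and the adjusted p from edgeR. Got1, Gm8797 and Apoe passed the test, and Apoe is near the level found in T cells of the same libraries, while the other 9 genes did not pass.

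Ribosomal protein genes, counted together after their values were seen, took a smaller share of the members' UMIs in CaMKK2 KO mice. The 83 genes made up 20.1%, 15.7%, 18.5% and 18.3% of UMIs in WT mice 1 to 4 and 14.6%, 11%, 15.1% and 10.3% in CaMKK2 KO mice 1 to 4. All CaMKK2 KO mice lay below the lowest WT mouse (18.1% ± 1.82 against 12.7% ± 2.45, n = 4 each), and no test of this sum is given, since it was formed after its genes were seen. Of 79 such genes tested, 78 had a log2 fold change below 0, with a median of -0.53, and none passed the adjusted test, while 60 had an unadjusted p below 0.05 on the lower side, where 5.78% of all genes did. Other dendritic cells showed 24.0% ± 1.40 and 20.4% ± 1.38 (n = 4 each), and an effect of the channel cannot be told apart from one of genotype. Without members that held UMIs of other cell types the shares were 18.2% ± 1.89 and 12.4% ± 2.54.

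The other dendritic cells of the same mice gave more calls, on more cells and UMIs. Of 6410 genes tested in them, 194 (3.03%) differed between the genotypes, 114 higher (1.78%) and 80 lower (1.25%) in CaMKK2 KO mice. The count was 99 without cells that held pDC genes, 13 with cDC1-gated cells alone, and 74 when WT mouse 4 was left out, 84 when CaMKK2 KO mouse 1 was and 109 to 147 when any other mouse was. The higher ones were 58.8% of the calls, against 44.3% with TMM factors and 43.4% without cells that held pDC genes. Without adjustment 629 (9.81%) were higher and 398 (6.21%) lower. The test of whether the difference between genotypes itself differed between the classes covered 7220 genes and passed for 3 (0.0416%), with 461 at an unadjusted p below 0.05.

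AA467197 (ENSMUSG00000033213, chr2:122636986-122641191), which encodes a small mitochondrial protein, had 443, 739, 490 and 839 CPM in members of WT mice and 621, 310, 371 and 346 in those of CaMKK2 KO mice. In other dendritic cells it had 432, 415, 609 and 297 CPM in WT and 67.9, 25.9, 71.2 and 32.9 in CaMKK2 KO mice. The groups overlapped in the members and did not in the other cells, where the gene fell (log2 fold change -3.08, adjusted p = 0.000105), and the difference between the classes passed (interaction 2.49 ± 0.38, adjusted p = 0.0149, edgeR). Grasp (ENSMUSG00000000531, chr15:101224188-101232756), a scaffold protein of receptor traffic, had 158, 255, 223 and 203 CPM in members of WT and 238, 338, 322 and 312 in those of CaMKK2 KO mice, with CaMKK2 KO mouse 1 inside the WT range. Among other dendritic cells it fell from 75.3 ± 19.3 to 26.7 ± 5.66 CPM (adjusted p = 0.007), and the difference between the classes was 1.97 ± 0.35 on the log2 scale (adjusted p = 0.0486, edgeR). Without WT mouse 1, WT mouse 4 or CaMKK2 KO mouse 2, 3 or 4 its adjusted p was 0.111 to 0.191, and it was 0.0881 with TMM factors, 0.0905 with cDC2-gated cells alone as the other class, 0.127 without cells that held pDC genes and 0.0685 with at least 200 UMIs per gene. For AA467197 it was 0.0738 when WT mouse 1 was left out and 0.0604 when CaMKK2 KO mouse 2 was.

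Ext1 (ENSMUSG00000061731, chr15:53064038-53346159), a glycosyltransferase that elongates heparan sulfate, was seen in members of WT mice alone. It had 190, 97.8, 80.4 and 66.0 CPM there, 78 UMIs in all, and no UMI in members of any CaMKK2 KO mouse. Against a floor of 3 UMIs over the group, its level was at least 33.8-fold higher in WT members. In other dendritic cells it had 26.5 ± 3.16 and 16.7 ± 6.06 CPM (log2 fold change -0.63, adjusted p = 0.264), and the difference between the classes passed the test (adjusted p = 0.0149, edgeR). It had too few UMIs to be tested in the members alone, and the interaction had an adjusted p of 0.0637, 0.0799 and 0.051 when WT mouse 1, CaMKK2 KO mouse 2 or CaMKK2 KO mouse 3, in this order, was left out. Ifi202b, an interferon-inducible DNA sensor named after its values were seen, had no UMI in members of any WT mouse and 61.4, 108, 21.0 and 161 CPM in those of CaMKK2 KO mice 1 to 4, which is at least 29.5-fold higher against the same floor (adjusted p = 0.0547, edgeR, and 0.0615 without members that held UMIs of other cell types). It had no UMI in WT macrophages, T cells, NK cells, B cells or other dendritic cells either, and 258 ± 129 CPM in other dendritic cells of CaMKK2 KO mice. The sources give the C57BL/6 background of the lines but no genotype beyond the Camkk2 deletion. Per the paper, C57BL/6J mice were bought from the Jackson Laboratory, while the CaMKK2-/- mice came from Luigi Racioppi of Duke University. Other genetic differences between the WT and CaMKK2 KO mice were not tested. They cannot be told apart from the Camkk2 deletion or from the channel.

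**Figure D5:**
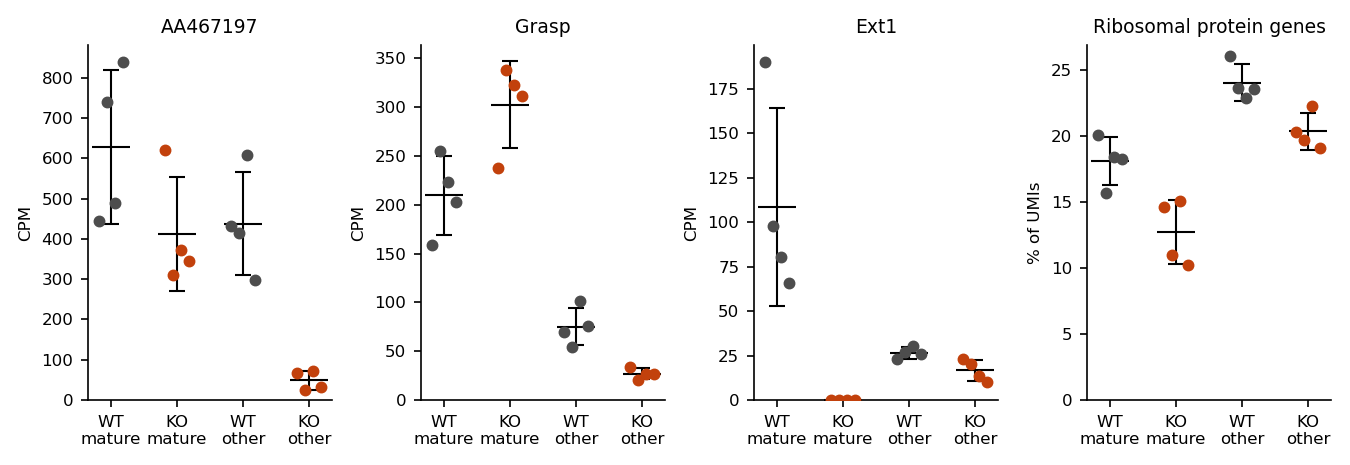
CPM of AA467197, Grasp and Ext1, and the percentage of UMIs from ribosomal protein genes, in mature migratory and other dendritic cells of WT (grey) and CaMKK2 KO (orange) mice, with 1 point per mouse, the mean as a line and the SD as bars. AA467197 drops to 49.5 CPM in other dendritic cells of CaMKK2 KO mice but overlaps in the members, and Ext1 has no UMI in members of the 4 CaMKK2 KO mice.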

How the data were processed

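Single-cell RNA was read with 10X 3' v3.1 chemistry. Per the labels, the authors processed reads with Cell Ranger 4.0.0, which runs STAR (2.7.5c), against mm10, and the deposited values are raw UMI counts per gene and hashtag counts per barcode, 1 matrix per genotype. Here barcodes were assigned to mice by HTODemux (Seurat 5.3.0, quantile 0.99). Other dendritic cells had at least 3 UMIs of Xcr1 and Clec9a (cDC1-gated) or at least 3 of Cd209a and Clec10a with 1 of Flt3 (cDC2-gated), with the same limits on C1q and lineage genes. T cells, B cells, NK cells and macrophages were gated by Cd3e, Cd79a, Ncr1 and C1q genes. Barcodes with several hashtags were left out, and doublets marked by Scrublet were removed only as an alternative.

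UMIs were summed per mouse and class. Genotypes were compared in edgeR 4.0.16 (R 4.3.3) by glmQLFit and glmQLFTest, with genes of at least 100 UMIs, total UMIs as library size and Benjamini-Hochberg adjustment at 0.05. The interaction was fitted with mouse as a block. Shares were compared by exact permutation in scipy 1.17.1. Alternatives included TMM factors, other filters, DESeq2 1.42.0, limma 3.58.1, thinning and leaving out each mouse. Scripts were tested on simulated data. For a gene at 0, 3 UMIs are taken as the floor, which covers counting error alone.

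Genes were named if they were among the 12 with the largest rise or fall past the test, the 20 highest or 15 lowest ratios, the 6 lowest interaction p-values, or members of a list. The members and the lists were chosen with earlier results of these data known. Whether the hashtagged mice differ in batch is not given in the sources used here. Gene positions are from the GENCODE annotation on mm10, in which 31107 of 31253 gene identifiers were found. Results of a few genes, among them 1 that passed the test between genotypes in the members, are not reported here.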

Additional observations from a re-analysis of the deposited data

Results flagged for a closer look

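In groups of 4 mice, a single mouse far from the other 3 marks about 1 group in 20 by chance. Of 264 groups of values in members that were examined, over the 133 genes named here, the shares of members and the summed markers of other cell types, 28 were marked. A group in which a single mouse had UMIs and the other 3 had none is always marked, so that rate does not hold for it. WT mouse 1, which rests on 4 cells, was low for Cd274 (475 CPM, against 559 to 561 in the other WT mice) and Myo1g (222 CPM), and high for Fos (1520 CPM), Egr1 (412), Icam1 (348) and Camk1d (31.7). The Camk1d value lies under the 95.0 CPM that 3 UMIs make in that mouse. WT mouse 3 was high for H2-K1 (4559 CPM), Cd8b1 (117), the T cell genes together (205), Cd7 (29.2) and Rab7b (3.66). WT mouse 2 alone among the WT mice had UMIs of Cd209a (8.15 CPM), Clec9a (8.15) and Tlr3 (2.72), and WT mouse 4 was the single WT mouse with UMIs of the mast cell or basophil genes (4.71).

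CaMKK2 KO mouse 1, with 13 cells, was high for Ccl22 (3237 CPM, against 1176 to 1384 in the others), C1qc (61.4) and Clec9a (15.3) and low for Etv3 (384). CaMKK2 KO mouse 2 was low for H2-Aa (2702 CPM, against 4689 to 4885) and H2-DMb1 (58.3), and high for Gzma (608) and the NK genes together (725). CaMKK2 KO mouse 3 was low for Gbp2 (291 CPM, against 580 to 621) and alone among the CaMKK2 KO mice had UMIs of Anxa1 (17.5), Itgae (21) and Plet1 (24.5). CaMKK2 KO mouse 4 was the single CaMKK2 KO mouse with UMIs of the mast cell or basophil genes (82.9).

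For 3 genes the genotype difference itself differed between mature migratory and other dendritic cells, by 2.49 on the log2 scale for AA467197, by -7.85 for Ext1 and by 1.97 for Grasp (edgeR interaction test). The value for Ext1 depends on the prior count, since its level in members of CaMKK2 KO mice was 0.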

How the results depend on the processing

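The number of genes past the test in members was 4, and it was 30 with at least 30 UMIs per gene, 196 with no filter on low counts and 77 by DESeq2, which gave an adjusted p for 575 genes and shared 2 of the 4. It was 15 with at least 5 UMIs of Ccr7 and Fscn1, 8 after thinning to 5000 UMIs, 14 without doublets marked by Scrublet and 10 with an 80% rule for hashtags. TMM factors, at least 200 UMIs, fewer than 10 C1q UMIs and limma each gave 4. In other dendritic cells 194 genes passed, 501 with no filter on low counts, 13 with cDC1-gated cells alone and 99 without cells that held pDC genes. The interaction passed for 3 genes, for 8 with at least 30 UMIs, 71 with no filter, 9 by DESeq2 and 6 without members that held UMIs of other cell types. The last 2 settings on other cell types were chosen after seeing the data.

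Leaving out each mouse in turn gave 2 to 16 genes in members, 74 to 147 in other dendritic cells and 0 to 13 for the interaction, with 0 when WT mouse 1 or CaMKK2 KO mouse 2 was left out. The difference in the share of all cells ran from -0.0466 to 0.695 percentage points, below 0 only without CaMKK2 KO mouse 4, and that in the share of dendritic cells from 9.26 to 23.5. The cause of these shifts was not tested. The number of genes 2-fold apart between the classes ran from 369 to 652 against 530. No paired analysis was possible because the labels give no numbers that tie a WT to a CaMKK2 KO mouse. With 4 cells in WT mouse 1, a gene at 0 there can be at up to 95.0 CPM.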
